A study of Mus musculus with 4 samples.

Results

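*Ucp1* encodes uncoupling protein 1 of the inner mitochondrial membrane. The chromatin around the gene was examined peak by peak in snATAC-seq data of inguinal white adipose tissue (iWAT), the subcutaneous fat depot of the mouse groin. Of the 189598 peaks in the deposited matrix, the 20 that lay within 50 kb of the gene were taken, whatever their level. *Ucp1* (ENSMUSG00000031710) lies on chromosome 8 from 83290352 to 83298452 on the plus strand of mm10. Its neighbours are *Tbc1d9* on the upstream side, which ends at 83272934, and *Elmod2* on the downstream side, which is read from the minus strand and starts at 83332486. Peaks are named by the distance in kb of their centre from the *Ucp1* start.

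Male C57BL/6J mice aged 8 weeks, kept at 22 °C, made up day0RT, the group sampled before any treatment. The other groups were held at 6.5 °C by the labels for 1, 3 or 7 days (day1C, day3C and day7C) or were given CL-316,243 (CL), an agonist selective for the β3-adrenergic receptor, at 1 mg/kg for 1, 3 or 7 days (day1CL, day3CL and day7CL). All mice had been acclimated at 22 °C for 14 days, and the CL mice were treated at that temperature. Each of the 7 groups held 3 mice, all male and of 1 inbred strain. Nuclei came from whole iWAT, so those of each mouse are of mixed cell types. The mice share pooled sequencing lanes and are told apart by the deposited annotation of nuclei. The authors had sorted the 32552 nuclei into 12 annotated cell types, among them 1069 beige adipocytes and 5935 nuclei of the cluster labelled Adipocyte, called white adipocytes here. The general adipocyte genes *Adipoq*, *Plin1* and *Cidec* were open in both clusters, but not every gene of that list was selective. *Adipoq* stood at 93.9 CPM in the beige and 109 CPM in the white cluster, and reached 77.0 CPM in CD4 T cells. *Lipe*, of the same list, stood at 247 and 275 CPM, and at 89.5 to 164 CPM in the other types. *Cidec*, which coats lipid droplets, stood at 126 CPM in the beige cluster, at 143 CPM in the white one and at 2.90 to 13.0 CPM in the other 10 types. *Ucp1* itself is among the markers of the beige annotation.

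A matrix entry is 1 where a nucleus had a read in a peak and is empty otherwise. CPM below is the number of such entries per 1e+06 entries of the same nuclei over all peaks, so it is a rate and not a count of reads. The data held 1111 to 2021 nuclei and 1340376 to 6916698 entries per mouse. The median beige nucleus held 3087 entries and the median white nucleus 2561. Beige medians ran from 1718 entries in day1C to 4097 in day3C, and shares of nuclei with an entry follow that depth. Shares are therefore also given after each nucleus was thinned to 1000 entries, with shallower nuclei left out. In 2 of the 3 day1CL mice there were fewer than 10 beige nuclei, and these mice are left out of every beige sum per mouse. The barcode sequences of 8739 nuclei occurred in more than 1 mouse. Their part in the results was not tested.

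Uncoupling protein 1 lets protons flow back into the mitochondrial matrix without making ATP, so that fuel oxidation gives heat. It is the classical mark of brown adipocytes and of beige adipocytes, the inducible thermogenic cells of white depots. Noradrenaline released in the cold acts through β-adrenergic receptors, cAMP and protein kinase A on factors that bind the *Ucp1* promoter and an enhancer a few kb upstream. Those factors include PPARγ with its coactivator PGC-1α, thyroid hormone and retinoid receptors, CREB and ATF2, C/EBPβ, EBF2 and NFIA.

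The sequences of the elements that the values below turn on are shown first, read from the mm10 genome. They are the 300 bases before the *Ucp1* start, and the central 300 bases of the 3 peaks upstream of it and of the last 2 of the 3 peaks just behind the gene. The promoter stretch ends at the base before the start of the transcript. Capitals mark every match, on either strand, to the letters of the motif list: AGGTCA (the element of many nuclear receptors), TCAAGGTCA (ESRR), a direct repeat of AGGTCA with 1 base between (PPAR-RXR), TGACGTCA and its shorter form TGACG (cAMP response element, CRE), TTGGCA (NFI), CCCNNGGG (EBF), TAAAAATA (MEF2) and TTGCNNAA (C/EBP).
peak at -5.8 kb, mm10 plus strand, chr8:83284430-83284729: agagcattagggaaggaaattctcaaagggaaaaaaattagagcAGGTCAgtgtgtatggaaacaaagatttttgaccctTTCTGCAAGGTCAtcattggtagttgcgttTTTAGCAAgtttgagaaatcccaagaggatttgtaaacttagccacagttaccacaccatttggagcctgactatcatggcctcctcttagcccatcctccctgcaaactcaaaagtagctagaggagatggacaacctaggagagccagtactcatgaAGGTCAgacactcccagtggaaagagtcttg
peak at -4.7 kb, mm10 plus strand, chr8:83285491-83285790: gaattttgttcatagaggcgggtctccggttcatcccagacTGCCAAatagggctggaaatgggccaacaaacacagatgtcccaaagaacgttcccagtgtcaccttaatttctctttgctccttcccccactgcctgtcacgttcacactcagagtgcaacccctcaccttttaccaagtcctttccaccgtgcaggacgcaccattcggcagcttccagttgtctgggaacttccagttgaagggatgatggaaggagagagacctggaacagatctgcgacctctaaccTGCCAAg
peak at -2.5 kb, mm10 plus strand, chr8:83287736-83288035: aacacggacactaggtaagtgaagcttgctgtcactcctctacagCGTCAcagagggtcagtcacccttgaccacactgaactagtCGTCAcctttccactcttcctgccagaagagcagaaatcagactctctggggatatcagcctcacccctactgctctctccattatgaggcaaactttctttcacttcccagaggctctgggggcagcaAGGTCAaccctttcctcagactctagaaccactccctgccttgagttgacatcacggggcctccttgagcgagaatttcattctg
promoter, mm10 plus strand, chr8:83290052-83290351: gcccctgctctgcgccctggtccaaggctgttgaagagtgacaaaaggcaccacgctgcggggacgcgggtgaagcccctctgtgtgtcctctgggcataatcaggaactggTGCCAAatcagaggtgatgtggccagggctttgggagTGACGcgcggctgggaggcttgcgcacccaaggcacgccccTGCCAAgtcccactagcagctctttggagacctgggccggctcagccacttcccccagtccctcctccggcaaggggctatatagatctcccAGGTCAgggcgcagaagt
peak at +9.1 kb, mm10 plus strand, chr8:83299293-83299592: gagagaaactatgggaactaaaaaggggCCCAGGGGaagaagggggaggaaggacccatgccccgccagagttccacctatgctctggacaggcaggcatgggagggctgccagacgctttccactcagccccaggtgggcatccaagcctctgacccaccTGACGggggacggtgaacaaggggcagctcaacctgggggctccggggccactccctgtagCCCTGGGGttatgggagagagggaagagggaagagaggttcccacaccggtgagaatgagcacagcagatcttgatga
peak at +9.8 kb, mm10 plus strand, chr8:83300021-83300320: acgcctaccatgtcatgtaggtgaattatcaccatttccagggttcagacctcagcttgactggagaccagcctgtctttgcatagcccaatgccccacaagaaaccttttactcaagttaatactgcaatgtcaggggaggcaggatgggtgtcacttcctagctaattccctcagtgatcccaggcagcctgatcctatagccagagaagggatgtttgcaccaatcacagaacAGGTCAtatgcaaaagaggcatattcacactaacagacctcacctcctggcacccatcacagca

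The promoter held AGGTCA 18 bases and TGACG 151 bases before the start on the plus strand, and TTGGCA on the minus strand 188 and 110 bases before it. The -5.8 kb window held 3 AGGTCA matches and 2 C/EBP matches, of which 1 C/EBP match shares its last base with an AGGTCA match. The -4.7 kb window held 2 TTGGCA matches and the -2.5 kb window, in the region of the classical enhancer, 1 AGGTCA and 2 TGACG matches. The +9.1 kb window held 2 EBF matches and 1 TGACG match, and the +9.8 kb window 1 AGGTCA match. These short motifs are common. AGGTCA was found in 7 of the 20 windows of the locus and in 21.0% of all 189598 windows of 300 bases. TGACG was found in 7 of 20 and in 12.5% of all, TTGGCA in 4 of 20 and in 23.6%, the EBF letters in 3 of 20 and in 11.2%, and the C/EBP letters in 3 of 20 and in 18.5%. No window of the locus held TCAAGGTCA, TGACGTCA, the PPAR-RXR repeat or TAAAAATA, which stood in 0.632%, 0.478%, 0.0997% and 3.61% of all windows.

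Across cell types, accessibility at *Ucp1* lay mostly in adipocyte nuclei. The 5 peaks from -5.8 kb to +1.8 kb, those of the gene and the 10 kb upstream of it, together stood at 117 CPM in beige nuclei against 17.2 CPM in white nuclei. In the other 10 cell types they stood between 0.669 CPM (CD4 T cells) and 6.07 CPM (dendritic cells). An entry in at least 1 of the 5 peaks was present in 35.0% of beige nuclei (374 of 1069, 95% Clopper-Pearson interval 32.1 to 37.9) and in 6.13% of white nuclei (364 of 5935, 5.54 to 6.77). After thinning, the shares were 12.0% and 1.77%, and those of the other types ran from 0.0770% in CD8 T cells to 0.481% in the cluster labelled APC2. The shares of the immune types are given for comparison, and the source of their entries was not tested. B cells, with 11967 nuclei the largest cluster, had 0.142% before and 0.128% after thinning. All intervals cover counting error only. The clusters were made from the same matrix, so these levels describe the clusters and were not tested.

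**Figure D1:**
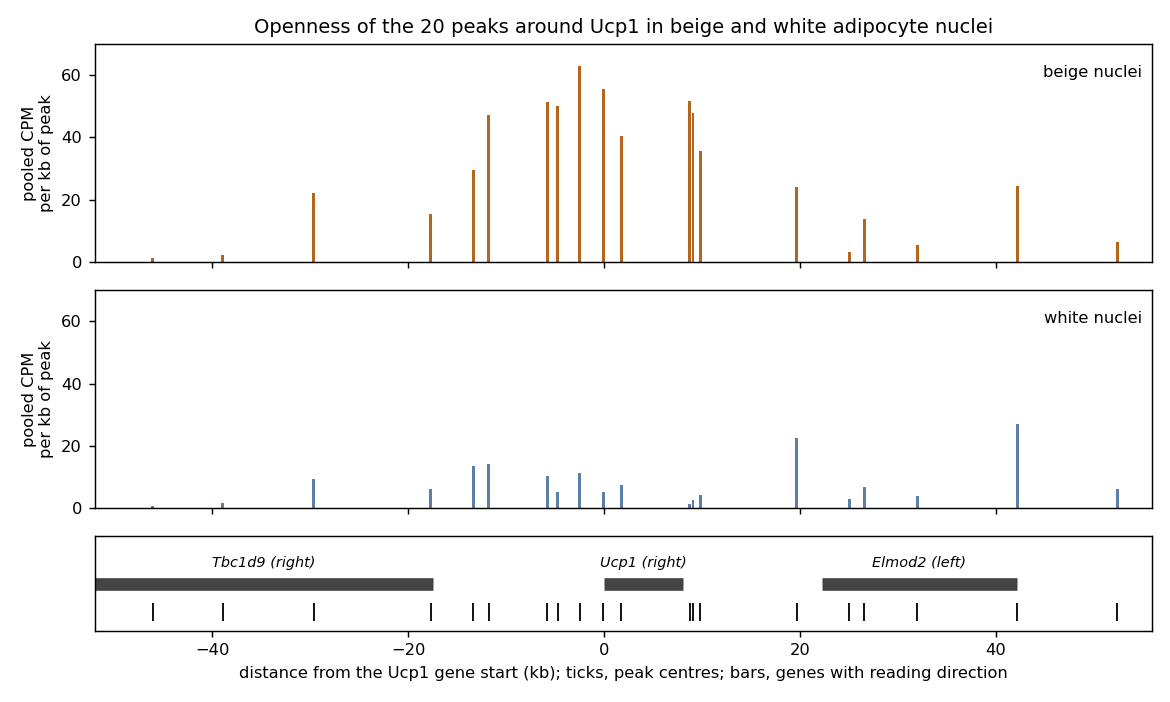
CPM per kb of peak for the 20 peaks around *Ucp1* against distance from its start in kb, with beige (1069 nuclei) and white adipocytes (5935 nuclei) in separate panels over a row of gene bodies. The 9 highest beige peaks lie from -11.8 kb to +9.8 kb, at 35.7 to 62.9, and the highest white peak is the *Elmod2* start, at 26.9.

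Per kb of peak, 9 elements of the beige profile were of like height. The -2.5 kb peak stood highest, at 62.9 CPM per kb, then the promoter at 55.6, +8.8 kb at 51.6, -5.8 kb at 51.4, -4.7 kb at 50.2, +9.1 kb at 47.7, -11.8 kb at 47.3, +1.8 kb at 40.6 and +9.8 kb at 35.7. In white adipocytes the 2 highest peaks per kb were the *Elmod2* start at 26.9 and +19.7 kb at 22.4 CPM per kb. The larger ratios of beige to white lay between -11.8 and +9.8 kb. The promoter peak, from 83290040 to 83290553, stood at 28.5 CPM in beige and 2.75 in white adipocytes, a pooled ratio of 10.4. It was higher in beige nuclei in 17 of the 19 mice with at least 10 beige nuclei. The -4.7 kb peak was higher in 19 of 19 mice (25.9 and 2.63 CPM, ratio 9.85).

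The other peaks before and within the gene had smaller ratios. The -5.8 kb peak stood at 25.5 and 5.09 CPM (ratio 5.00) and the -2.5 kb peak at 24.4 and 4.39 CPM (ratio 5.54). The intron peak at +1.8 kb stood at 12.9 and 2.34 CPM (ratio 5.53). The -11.8 kb peak, between *Tbc1d9* and *Ucp1*, was higher in beige nuclei in 19 of 19 mice although its ratio was 3.33 (34.2 and 10.3 CPM). The -13.3 kb peak had a ratio of 2.17. At +19.7 kb the levels were 20.8 and 19.4 CPM (ratio 1.08), and at the *Elmod2* start 44.3 and 48.9 CPM (ratio 0.907).

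Behind the gene, 3 peaks lay between 83299009 and 83300441. The +8.8 kb peak stood at 10.3 CPM in beige nuclei against 0.246 CPM in white ones, the +9.1 kb peak at 11.6 and 0.657 CPM, and the +9.8 kb peak at 19.3 and 2.38 CPM. The ratios were 41.9, 17.7 and 8.11, the first of them over 6 white entries.

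**Figure D2:**
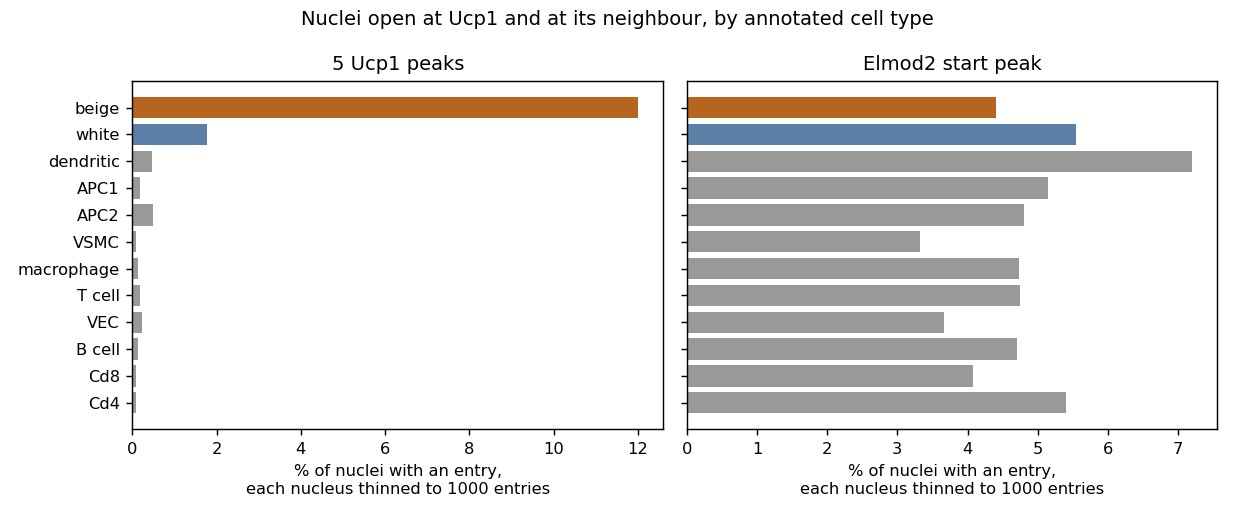
Bars give the share of nuclei with an entry after thinning to 1000 entries, in percent, for the 12 annotated cell types, at the 5 *Ucp1* peaks on the left and at the *Elmod2* start on the right, on axes of different range. Beige adipocytes reach 12.0% at the *Ucp1* peaks and white adipocytes 1.77%, the other types lie between 0.0770% and 0.481%, and the *Elmod2* start is open in every type.

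A single beige nucleus rarely had entries in more than a few elements. Of the 8 peaks from -5.8 kb to +9.8 kb, 627 beige nuclei had none, 268 had 1, 116 had 2, 29 had 3, and 29 had 4 or more, with a largest number of 7. Among white nuclei 5513 had none, 363 had 1, 44 had 2, 12 had 3 and 3 had 4. The median depth rose from 2325 entries in beige nuclei with none to 5110 in those with 2. Beige nuclei with a promoter entry (130, median depth 4692) had an entry in the 3 upstream peaks in 51.5% (42.6 to 60.4) and in the 3 downstream peaks in 34.6% (26.5 to 43.5). Of the 939 beige nuclei without one (median depth 2914), 23.2% (20.5 to 26.1) and 12.2% (10.2 to 14.5) had such entries. The part of depth in this difference was not tested.

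In adipocytes as a whole, beige and white nuclei summed per mouse, the level at *Ucp1* was higher on day 7 of cold than in day0RT. The gene value adds the promoter and the +1.8 kb peak. It was 6.65, 2.79 and 7.31 CPM in the day0RT mice and 28.6, 17.7 and 15.6 CPM in the day7C mice. Every day7C mouse was above every day0RT mouse. The rise was 1.51 ± 0.36 on the log2 scale (SE, n = 3 and 3, edgeR quasi-likelihood adjusted p = 0.00483), in a comparison that called 5.08% of 14408 genes. Without the first day7C mouse it was 1.21 with adjusted p = 0.0800.

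The day7CL mice held 13.7, 11.3 and 9.47 CPM at the gene, all above day0RT and all below day7C. Their difference from day0RT was 0.89 ± 0.37 (edgeR adjusted p = 0.126), with 7.72% of genes called. The difference of day7CL from day7C was -0.62 ± 0.25 (adjusted p = 0.429). At the earlier days the groups overlapped with day0RT. The day1C mice held 5.87, 18 and 14.9 CPM (difference 0.68, adjusted p = 0.628, 0.340% of genes called). The day3C mice held 9.58, 9.63 and 6.99 CPM (0.45, adjusted p = 0.636, 1.67% called). The day1CL mice held 32.1, 4.42 and 10.7 CPM (0.65, adjusted p = 0.523, 2.58% called), and the highest of these rests on 29 adipocyte nuclei. The day3CL mice held 10.4, 6.43 and 7.03 CPM (0.17, adjusted p = 0.872, 4.77% called). The neighbour *Tbc1d9* differed from day0RT by 0.23 ± 0.23 in day7C and 0.16 ± 0.22 in day7CL (adjusted p = 0.659 and 0.729), and *Elmod2* by -0.38 ± 0.17 and -0.46 ± 0.16 (adjusted p = 0.184 and 0.0518).

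**Figure D3:**
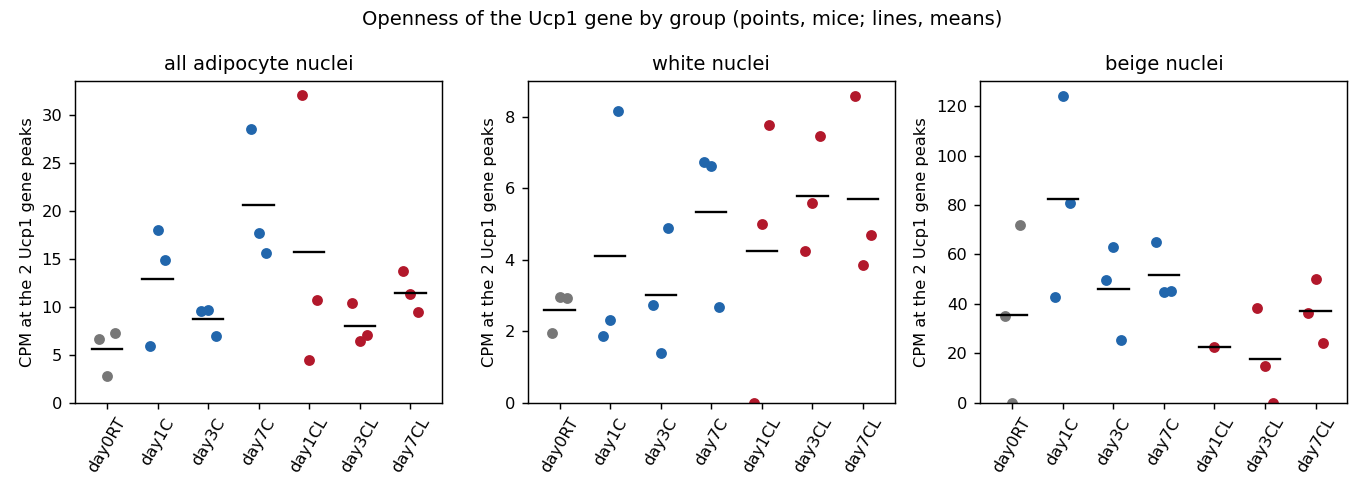
*Ucp1* gene accessibility (promoter and +1.8 kb peaks) in CPM for each mouse by group, in panels for all adipocytes, white adipocytes and beige adipocytes, with points for mice and lines for group means. In all adipocytes the 3 day7C mice, at 15.6 to 28.6 CPM, lie above the 3 day0RT mice, at 2.79 to 7.31 CPM, while beige values overlap between groups.

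Beige nuclei were a larger part of the adipocytes in the same mice. They made up 9.22 ± 2.62% of adipocyte nuclei in day0RT (SD, n = 3), 10.4 ± 3.30% in day1C, 12.2 ± 3.21% in day3C and 29.4 ± 3.20% in day7C. In the CL groups they made up 14.2 ± 6.67% on day 1, 12.8 ± 7.06% on day 3 and 20.0 ± 4.85% on day 7. More beige nuclei and more open chromatin per nucleus cannot be told apart in the adipocyte sums, so the clusters were also taken alone.

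Within beige nuclei the gene value was 35.0, 0 and 72.0 CPM in day0RT, from 58 nuclei in all. In day7C it was 64.9, 44.9 and 45.3 CPM, and in day7CL 36.3, 50.1 and 24.3 CPM. Both treated groups thus lay inside the day0RT range, but its lower end is set by mouse 2, with 12 beige nuclei and 19550 entries. Between the other day0RT mice, at 35.0 and 72.0 CPM, lay all day7C mice but not day7CL mouse 3, at 24.3 CPM. In day1C it was 42.6, 124 and 81.0 CPM, in day3C 49.6, 62.8 and 25.2 CPM, and in day3CL 38.1, 14.7 and 0 CPM, while the 1 day1CL mouse with enough nuclei held 22.4 CPM. Within white nuclei the gene value was 2.61 ± 0.578 CPM in day0RT, 5.35 ± 2.31 in day7C and 5.71 ± 2.52 in day7CL. Single mice ran from 1.94 to 2.95 CPM in day0RT, from 2.69 to 6.74 in day7C and from 3.85 to 8.58 in day7CL, so that day0RT and day7CL did not overlap. The day3CL mice, at 4.25 to 7.48 CPM, also lay above day0RT. The white day0RT levels rest on few entries per mouse, with 0, 0 and 2 entries at +1.8 kb. Single entries thus decide whether these groups overlap. The gene value was not tested within the clusters.

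Over the 5 peaks, the share of white nuclei with an entry after thinning was 1.80 ± 0.487% in the 18 treated mice and 1.62 ± 0.180% in the 3 day0RT mice. The difference was 0.182 percentage points (two-sided exact permutation test, p = 0.531). Among beige nuclei it was 12.2 ± 3.47% in 16 treated mice and 15.6% and 15.7% in the 2 day0RT mice with enough nuclei, a difference of -3.49 points (exact permutation test, p = 0.196). Without thinning the beige difference was -0.317 points over the same mice (exact permutation test, p = 0.967), an alternative added after seeing the data. With all nuclei 1 more day0RT mouse came in, with an entry in 8.33% of its 12 beige nuclei, and the difference was 8.52 points (exact permutation test, p = 0.264). Neither difference passed the test.

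By group, the share of beige nuclei with a promoter entry was 10.3% (3.89 to 21.2, 6 nuclei) in day0RT, 15.9% (8.72 to 25.6) in day1C, 20.3% (14.2 to 27.5) in day3C and 15.9% (11.8 to 20.8) in day7C. With CL it was 6.60% (2.70 to 13.1) on day 1, 4.29% (1.74 to 8.65) on day 3 and 9.70% (6.25 to 14.2) on day 7. White nuclei held promoter entries in 0.518% in day0RT and in 0.768% to 1.52% in the treated groups. The beige shares of the upstream peaks were 12.1%, 12.1% and 8.62% in day0RT at -5.8, -4.7 and -2.5 kb. In day7C they were 13.0%, 11.9% and 14.1%, and in day7CL 13.9%, 11.4% and 8.44%. The -4.7 kb share was 17.1% in day1C and 2.83% in day1CL. The intron peak at +1.8 kb ran from 1.23% in day3CL to 7.59% in day7CL, and the -11.8 kb peak only from 12.1% in day0RT to 17.6% in day3C. All these shares are before thinning and follow depth. After thinning, the beige mice held 2.24, 2.20 and 0.401% at +1.8 kb in day7CL. They held 1.67, 2.47 and 5.66% in day1C and 0.693, 5.61 and 1.77% in day3C, so day7CL was then not the highest group.

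By shares before thinning, which follow depth, the outer peaks gave few beige nuclei in any group. At -46.1, -38.9 and +25.0 kb no group reached 1%, and at +32.0 kb the highest share was 1.22%. In day0RT, 0 of 58 beige nuclei had an entry at these peaks, which allows a share of up to 5.17%. At -17.7 kb the shares ran from 0 in day0RT to 4.22% in day7CL, at +26.6 kb from 1.48% to 3.45%, and at +52.4 kb from 0 in day0RT to 3.70% in day7C. At -29.6 kb they ran from 3.27% to 7.55%, at -13.3 kb from 3.45% to 9.15%, at +19.7 kb from 6.90% to 11.7%, and at the *Elmod2* start from 14.6% to 22.9%. White nuclei at the 8 peaks from -5.8 kb to +9.8 kb stayed between 0 and 3.32% in every group.

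Peak by peak, 10 of the 20 members had enough entries to be tested in adipocytes among 47835 peaks. The other 10, +1.8, +8.8 and +9.1 kb among them, did not pass the filter on low counts. The 2 largest differences from day0RT stood at the promoter and +9.8 kb in day7C and missed the threshold of 0.05. At the promoter the mice held 4.99, 2.79 and 4.57 CPM in day0RT and 17.7, 13.0 and 9.99 CPM in day7C. These do not overlap, and the difference was 1.34 ± 0.43 (edgeR adjusted p = 0.0535). At +9.8 kb they held 4.99, 2.79 and 3.65 CPM in day0RT and 15.1, 14.1 and 10.6 CPM in day7C, again without overlap (1.43 ± 0.47, adjusted p = 0.0594). The +9.8 kb peak passed the filter on low counts only through the day7C mice, so its fit is no independent support for that difference. The upstream peaks differed by 0.76 ± 0.37 at -5.8 kb, 0.78 ± 0.45 at -4.7 kb and 0.66 ± 0.37 at -2.5 kb (adjusted p = 0.254, 0.367 and 0.351). The -4.7 kb peak passed the filter on low counts only with day7C mice counted. Outside day7C only day1C mouse 2 (16.0 CPM) and day3CL mouse 1 (13.9 CPM) were high enough. Its fit is thus no independent support for a difference in day7C either. The median over the 10 tested peaks was 0.54, beside -0.01 over all peaks, and 3.13% of all peaks were called in this comparison. Because +9.8 and -4.7 kb are among the 10 only through day7C, this median is no independent support for a rise over the locus.

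In day7CL the values at the same peaks were smaller. The promoter differed from day0RT by 0.42 ± 0.44 and +9.8 kb by -0.19 ± 0.51 (edgeR adjusted p = 0.643 and 0.884). The median over the 10 peaks was 0.16, with 4.19% of all peaks called. The 1 member that passed the threshold was the *Elmod2* start, at +42.2 kb. It held 66.5, 64.2 and 54.8 CPM in day0RT and 38.6, 35.5 and 47.4 CPM in day7CL, and fell by 0.55 ± 0.17 on the log2 scale (adjusted p = 0.0379). Its levels in day7C were 45.4, 51.8 and 38.7 CPM (-0.43 ± 0.18, adjusted p = 0.168). In white nuclei alone its day7CL difference was -0.53 ± 0.18 (adjusted p = 0.0731). The call was lost without any of the 3 day0RT mice and without day7CL mouse 1 or 2 (adjusted p = 0.0832 to 0.210), and with DESeq2 (0.394), RLE size factors (0.0512), no filter on low counts (0.258), only nuclei of at least 2000 entries (0.239), only the 2 groups compared (0.136) or the replicate block (0.0508).

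No member was called against day0RT in adipocytes on days 1 and 3. The lowest adjusted p was 0.650 in day1C, 0.172 in day1CL, 0.408 in day3C and 0.347 in day3CL, where 0.213%, 2.06%, 1.28% and 3.46% of all peaks were called. The largest differences were 1.13 ± 0.49 at -13.3 kb and 0.85 ± 0.33 at -11.8 kb in day1CL (adjusted p = 0.242 and 0.172). At -13.3 kb the day1CL mice held 0, 13.3 and 10.2 CPM and the day0RT mice 4.99, 5.58 and 2.74 CPM, with overlap. That peak passed the filter on low counts only through day1CL mice 2 and 3 and day1C mouse 2. Its fit is thus no independent support for a difference in day1CL. At -11.8 kb the day1CL mice held 48.1, 17.7 and 22.6 CPM and the day0RT mice 11.6, 8.37 and 13.7 CPM, without overlap, the highest value again from the mouse with 29 adipocyte nuclei.

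**Figure D4:**
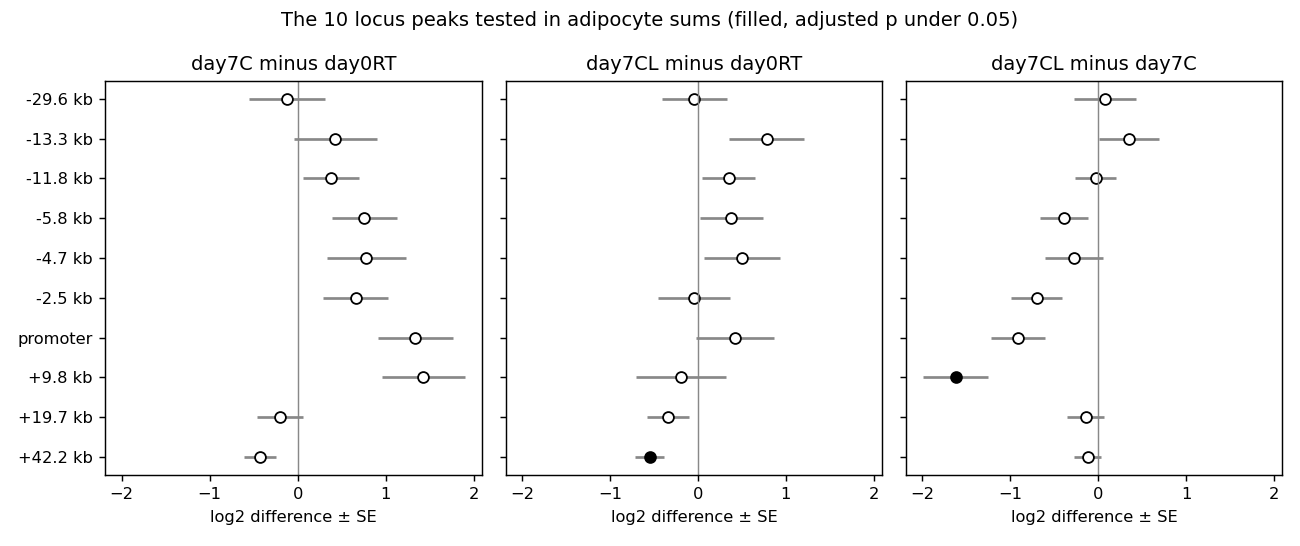
Fitted log2 differences in adipocytes with 1 SE for the 10 tested peaks of the locus, in order along the chromosome from top to bottom (filled points, adjusted p under 0.05), for day7C and day7CL against day0RT and for day7CL against day7C. The promoter and +9.8 kb have the largest differences in day7C, at 1.34 and 1.43, and +9.8 kb the largest between the treatments, at -1.62.

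Within each cluster only 3 members could be tested and none was called. In white nuclei these were -11.8, +19.7 and +42.2 kb, among 32541 peaks, of which 0.132% were called in day1C, 1.35% in day1CL, 0.974% in day3C, 3.30% in day3CL, 0.486% in day7C and 2.61% in day7CL. In beige nuclei they were -4.7 kb, the promoter and +42.2 kb, among 4633 peaks, of which 0.0216% were called in day1C, 0.00% in day1CL and in day3C, 0.130% in day3CL, 0.0216% in day7C and 0.0216% in day7CL. The promoter and -4.7 kb passed the beige filter only through day1C mouse 2, at 108 CPM at each. The beige promoter differed from day0RT by 0.49 ± 0.47 in day7C and -0.10 ± 0.49 in day7CL (edgeR adjusted p = 0.898 and 0.995). By the unadjusted p, 1 white member in day1CL and 1 in day7CL, and no beige member, lay under 0.05. The SEs in the beige fit ran from 0.40 to 0.62. Even a difference of -1.09 in day1CL, which rests on 1 mouse, was not called, so differences well above these SEs could be missed at this depth.

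Behind the gene, levels at +9.8 kb were lower in the day7CL mice than in the day7C mice. At +9.8 kb the adipocytes of the day7CL mice held 3.62, 1.61 and 3.55 CPM, within or below the day0RT range, against 15.1, 14.1 and 10.6 CPM in day7C. The difference of day7CL from day7C was -1.62 ± 0.37 (edgeR adjusted p = 0.0439), with 0.0230% of all peaks called. Outside day7C no mouse was above 6.12 CPM at this peak. The peak thus passed the filter on low counts only through day7C, the higher group, and the call is no independent support for the difference. In beige nuclei the level was 31.3, 49.0 and 28.8 CPM in day7C and 9.76, 5.01 and 14.6 CPM in day7CL, without overlap, while white nuclei held at most 5.39 CPM in these groups. The beige share of adipocyte nuclei, 29.4% and 20.0%, moved with it, and its part in the difference between the adipocyte sums was not tested. The promoter differed by -0.91 ± 0.31 (adjusted p = 0.495). The call at +9.8 kb was lost without any of the day7C or day7CL mice (adjusted p = 0.0689 to 0.526), without day1CL mouse 1 (0.0584), day3CL mouse 2 (0.0580) or day3CL mouse 3 (0.0618), and with DESeq2 (1.000), RLE size factors (0.0526), at least 30 nuclei per sum (0.0584), no filter (0.0529) or the replicate block (0.0592). On the earlier days no member was called between the treatments, with a lowest adjusted p of 0.318 on day 1 and 0.237 on day 3, where 0.458% and 1.79% of all peaks were called.

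The 3 downstream peaks were then summed, a choice made after their values were seen, so the following is a description with no test. In beige nuclei they stood at 23.3, 0 and 0 CPM in day0RT. With cold they stood at 17.0, 92.7 and 113 CPM on day 1, at 67.3, 71.7 and 84.0 CPM on day 3 and at 78.3, 81.7 and 45.3 CPM on day 7. With CL they stood at 14.0 CPM in 1 mouse on day 1, at 28.5, 11.8 and 14.6 CPM on day 3 and at 16.7, 5.01 and 29.2 CPM on day 7. On days 3 and 7 every cold mouse was above every CL mouse. The -11.8 kb peak on the other side of the gene had no such pattern, with 46.7, 51.2 and 28.8 CPM in day0RT, 35.8, 24.5 and 35.0 CPM in day7C and 26.5, 25.1 and 58.3 CPM in day7CL. It is 1 peak only. The beige promoter, given below, also stood lower in day7CL than in day7C, so the lower CL level was not particular to the downstream peaks.

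**Figure D5:**
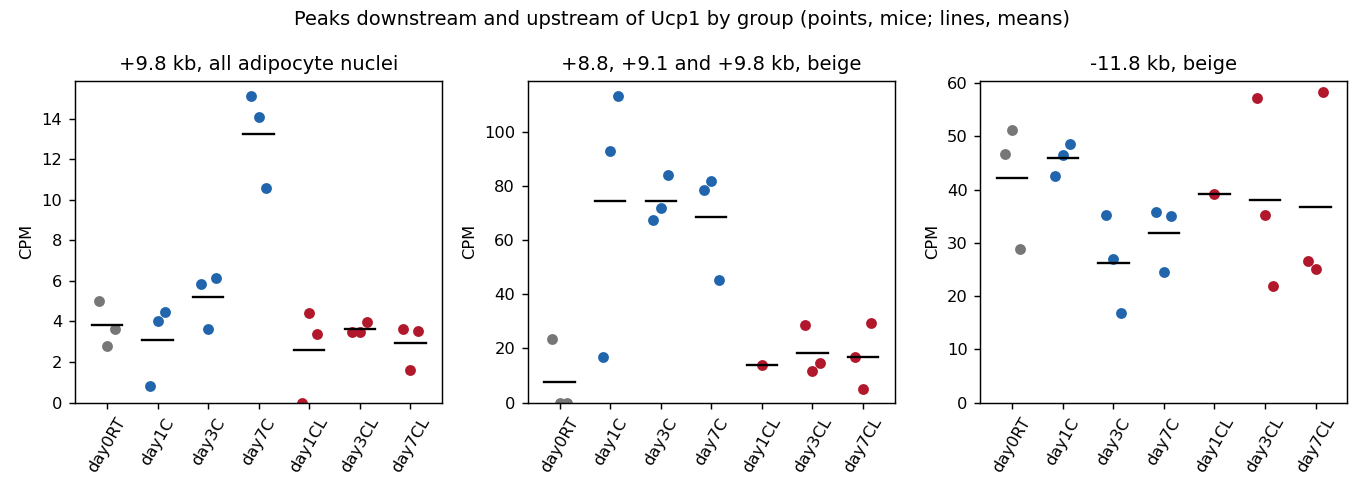
Accessibility in CPM for each mouse by group (points) with group means (lines), for +9.8 kb in all adipocytes, the sum of the 3 downstream peaks in beige nuclei, and -11.8 kb in beige nuclei. In the middle panel the cold groups on days 3 and 7 run from 45.3 to 84.0 CPM and the CL groups from 5.01 to 29.2 CPM, while at -11.8 kb the groups overlap.

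In shares of beige nuclei, these 3 peaks were open in 3.45% in day0RT, 14.6% in day1C, 30.7% in day3C (23.5 to 38.7) and 24.8% in day7C (19.8 to 30.4). With CL the shares were 5.66%, 5.52% and 7.17% (4.23 to 11.2) on days 1, 3 and 7. The median beige nucleus held 4097 entries in day3C and 2838 in day3CL, and 3140 in day7C and 3487 in day7CL. After thinning, the mean share over mice was 0.491 ± 0.694% in day0RT (SD, n = 2), 7.56 ± 6.36% in day1C, 10.7 ± 1.17% in day3C and 6.66 ± 2.10% in day7C. It was 1.41% in the day1CL mouse, 2.72 ± 2.03% in day3CL and 1.56 ± 1.33% in day7CL. White shares ran from 0.262% to 1.81%. The +8.8 kb peak alone was open in 13.7% of beige nuclei in day3C and 0.613% in day3CL. The +9.1 kb peak was open in 12.4% and 1.84%, and the +9.8 kb peak in 13.1% and 3.07%. After thinning, the means over mice were 4.30 ± 1.41% and 0.411 ± 0.712% at +8.8 kb, 3.48 ± 1.72% and 1.27 ± 1.86% at +9.1 kb, and 3.43 ± 0.174% and 1.04 ± 0.536% at +9.8 kb.

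A contrast of the mean of the CL groups with the mean of the cold groups over days 1, 3 and 7 was added after these values were seen, so its calls restate the values that prompted it and are no independent support for them. It called the promoter in beige nuclei, at -0.92 ± 0.24 (edgeR adjusted p = 0.0329), with 0.432% of beige peaks called. The other beige members tested were -4.7 kb, at -0.66 ± 0.25 (adjusted p = 0.295), and +42.2 kb, at 0.28 ± 0.20 (adjusted p = 0.746). The beige promoter stood at 34.1, 108 and 32.4 CPM in day1C, at 41.6, 35.9 and 8.40 CPM in day3C and at 44.7, 36.8 and 28.8 CPM in day7C. With CL it stood at 16.8 CPM in 1 mouse on day 1, at 38.1, 8.83 and 0 CPM on day 3 and at 20.9, 25.1 and 14.6 CPM on day 7. The treatments did not overlap on day 7, nor on day 1, where CL rests on 1 mouse, and overlapped on day 3. The call was lost without the filter on low counts (adjusted p = 0.595) and in 9 of 17 fits that left out 1 mouse each. The mice left out in these 9 fits were day0RT mouse 1, day1C mouse 1, day3C mice 1 and 2, day3CL mice 2 and 3, day7C mouse 1, and day7CL mice 1 and 3 (adjusted p = 0.0519 to 0.470). Without day1C mouse 2, the highest at 108 CPM, the promoter did not pass the filter and has no value. It has no value either without day1CL mouse 3, the 1 mouse of that group with enough beige nuclei. The promoter was thus testable only through 1 mouse on the cold side of the contrast, and only with that CL mouse kept.

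In adipocyte sums the same contrast called none of the 10 filtered members, with 1.75% of peaks called (promoter -0.50 ± 0.21, adjusted p = 0.223, and +9.8 kb -0.60 ± 0.31, adjusted p = 0.349). In white sums it called none of 3, with 2.13% called. These stood at 0.62 ± 0.20 at -11.8 kb, -0.21 ± 0.10 at +42.2 kb and -0.07 ± 0.14 at +19.7 kb (adjusted p = 0.0618, 0.276 and 0.881). Without the filter, where 189547 peaks were tested and 0.155% called, the +9.1 kb peak passed, at -1.40 ± 0.28 (adjusted p = 0.00368). Its entries were few. The adipocytes held 2.51, 6.00 and 2.97 CPM in day1C, 3.27, 4.81 and 3.50 in day3C and 12.6, 4.71 and 2.50 in day7C. They held 0 in all 3 day1CL mice, 1.74, 1.87 and 0 in day3CL and 1.55, 0 and 1.18 in day7CL. In day0RT they held 0, 2.79 and 0 CPM. Mice 1 and 2 of day1CL had only 62318 and 226334 adipocyte entries, so a level of 0 says little there. On each day the lowest cold mouse was above the highest CL mouse. The call was lost without day1CL mouse 3 (adjusted p = 0.160) and without day7C mouse 1 (adjusted p = 0.0530).

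Genes of the same programme were read from the adipocyte gene fit, by a list of thermogenic genes of 30 names, of which 29 distinct genes were tested because *Gyk* is an older name of *Gk*. In day7C 10 of the 29 rose and none fell, with a median of 0.27 beside -0.01 over all genes. Of all 14408 genes 5.08% were called, 429 of them higher and 303 lower. The risers were *Dio2* (1.23 ± 0.24), which activates thyroid hormone, *Elovl6* (1.21 ± 0.14), a fatty acid elongase, *Otop1* (1.12 ± 0.24), a proton channel, and *Cpt1b* (1.09 ± 0.26), which brings fatty acids into mitochondria. *Acot11*, *Pank1*, *Gk*, *Cidea*, *Kcnk3* and *Slc4a4* rose by 0.42 to 0.96. *Ucp1*, which is not on the list, differed by more than each of them, at 1.51. All these risers but *Cpt1b* were named by the study, from the same nuclei, as open in beige adipocytes or late in its beige trajectory. Their rise is thus no independent support for that of *Ucp1*. The beige share of adipocyte nuclei was 9.22% in day0RT, 29.4% in day7C and 20.0% in day7CL, and its part in these gene differences was not tested. In day7CL 10 rose and none fell, with a median of 0.26 beside -0.01 over all genes, of which 7.72% were called. *Otop1* stood at 1.21 ± 0.22, *Dio2* at 1.09 ± 0.23, *Cpt1b* at 0.98 ± 0.25 and *Elovl6* at 0.84 ± 0.15, against the same day0RT mice.

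*Pparg* (0.44 ± 0.10), the receptor that drives adipocyte genes, and *Ppargc1a* (0.44 ± 0.15), its coactivator PGC-1α, were called with CL on day 7. They stood at 0.32 ± 0.10 and 0.45 ± 0.15 with cold (adjusted p = 0.0507 and 0.0668). *Adrb3*, the receptor that CL activates, stood at -0.28 ± 0.14 in day7C and -0.27 ± 0.13 in day7CL (adjusted p = 0.240 and 0.213). On day 1 none of the 29 was called with cold and 2 fell with CL, *Adrb3* and *Irf4*, where 0.340% and 2.58% of all genes were called. On day 3 only *Pparg* rose with cold, and *Acot11*, *Elovl6*, *Kcnk3* and *Pparg* rose with CL, where 1.67% and 4.77% were called. *Adipoq*, the adiponectin gene, fell by 0.85 in day7C and by 0.91 in day7CL, and *Lep*, the leptin gene, stood at 0.04 and 0.16.

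The genes whose accessibility was most like that of *Ucp1* over the 21 adipocyte sums were chosen by Pearson's r of log2 CPM among 14407 genes. They were *Rmdn3* (r = 0.88), a tether of mitochondria to the endoplasmic reticulum, *Gk* (0.87), glycerol kinase, *Psd3* (0.84), *Kmt5c* (0.83), a histone methyltransferase, *Perm1* (0.83), a muscle regulator of PGC-1 and ERR target genes, and *Bmp8b* (0.83), a secreted factor of brown fat. *Padi1* (0.82), *Ppargc1a* (0.81), *Tirap* (0.81) and *Ppfibp2* (0.81) followed. *Kmt5c*, *Perm1* and *Bmp8b* have 1 peak each. *Kmt5c*, *Bmp8b*, *Padi1* and *Tirap* were called against day0RT in neither day7C nor day7CL (edgeR adjusted p = 0.0681 to 0.552). The highest *Ucp1* level among the sums is that of day1CL mouse 1, with only 62318 adipocyte entries, and the sums were not weighted by depth. The median over all genes was 0.07 and the 95th percentile 0.57. *Ucp1* itself had r = 0.73 with the beige share of the mouse and -0.27 with log10 of its adipocyte entries, and the points share mice, groups and that beige share. Of the listed thermogenic genes *Gk* and *Ppargc1a* are named above, and *Otop1* reached 0.78 and *Elovl6* 0.77. *Cidea*, a lipid droplet protein of brown fat, had 0.28 and *Kcnk3* had -0.12.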

How the data were processed

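The deposited data are 1 table of nuclei and peaks, and an annotation that gives each nucleus its mouse, its group and its cell type. Per the labels and the study's methods they aligned snATAC-seq reads to mm10 with Bowtie2, removed duplicates, called peaks with MACS2 per cluster and clustered nuclei with Signac. The deposited counts hold only 0 and 1 (65588856 entries of 1 and 145 stored zeros), so a wide open peak cannot exceed 1 per nucleus. The 4 GEO samples are pooled lanes, and mice and groups were read from the deposited annotation of nuclei. Doublets were removed by the authors and no caller was run here.

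The 20 peaks within 50 kb of *Ucp1* and all gene lists were chosen with earlier results of these data known. Named besides *Ucp1* are its neighbours, the thermogenic list with *Adipoq* and *Lep* as general adipocyte genes, the adipocyte markers *Plin1*, *Cidec* and *Lipe*, and the 10 genes with the highest r. A gene was given the peaks over its body and 2000 bases upstream, for 17173 of 21924 protein-coding genes. Entries were summed per mouse and cluster (at least 10 nuclei) and tested with edgeR 4.0.16 in R 4.3.3 (quasi-likelihood, TMM, filterByExpr with minimum count 10, minimum total 15 and proportion 0.7, Benjamini-Hochberg over all features). DESeq2 1.42.0, another normalization, other filters, other depth limits, a replicate block and leaving out each mouse were alternatives. Shares carry exact Clopper-Pearson intervals, and 0 counts allow up to 3 counts. Shares of mice were compared by exact permutation tests. The tests and the thinning were tested on simulated data. Sequences were read from GRCm38 (mm10), on which no peak passes a chromosome end. That the mice are separate animals is given by the study, and each gives 1 sum per cluster.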

Additional observations from a re-analysis of the deposited data

Results flagged for a closer look

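A difference between the treatments was past the test's threshold at the +9.8 kb peak in adipocytes, by -1.62 on the log2 scale between day7CL and day7C. That peak passed the filter on low counts only through day7C, the higher group. Over the 3 days together, a contrast chosen after seeing the data, CL minus cold was -0.92 at the promoter in beige nuclei and -1.40 at the +9.1 kb peak in adipocytes, the latter in the fit without a filter on low counts. These values restate the ones that prompted the contrast and are no independent support. The beige promoter was testable only through day1C mouse 2, a cold mouse.

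Some peaks of the locus had signal in cell types that the comparisons above do not use, above its level in both adipocyte clusters and with more than 3 entries. The -29.6 kb peak, in an exon of *Tbc1d9*, stood at 13.0 CPM in vascular endothelial cells (8 of 351 nuclei, 2.28%, 0.989 to 4.44), beside 12.9 CPM in beige nuclei, 5.58 CPM in white nuclei and 2.85 CPM in B cells. Its gap from the beige level (59 of 1069 nuclei, 5.52%) is within counting error. The -46.1 kb peak, in an intron of *Tbc1d9*, stood at 11.1 CPM in macrophages (22 of 1229 nuclei) and 9.87 CPM in dendritic cells (13 of 677 nuclei), beside 0.190 CPM in B cells. The -38.9 kb peak, also in an intron of *Tbc1d9*, stood at 7.59 CPM in dendritic cells (10 of 677 nuclei). In beige and white nuclei the levels were 0.439 and 0.246 CPM at -46.1 kb and 0.439 and 0.328 CPM at -38.9 kb. In the progenitors labelled APC1 the +25.0 kb peak, in an exon of *Elmod2*, stood at 7.13 CPM (11 of 665 nuclei), beside 0.878 CPM in beige and 0.821 CPM in white nuclei. The +52.4 kb peak stood there at 4.54 CPM (7 of 665 nuclei, 1.05%, 0.424 to 2.16), beside 4.39 and 4.19 CPM, a gap within counting error. Groups of 3 mice are too small for a test of single outlying mice.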

How the results depend on the processing

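Leaving out 1 mouse at a time kept direction and call in 239 of 282 fits, and the other settings in 41 of 65. The *Ucp1* gene value in day7C ran from 1.21 to 1.74 without 1 mouse and was lost only without day7C mouse 1 (adjusted p = 0.0800). With DESeq2 it was 1.75 ± 0.54 on the log2 scale and was given no adjusted p. The number of locus peaks called against day0RT in adipocytes, 1 at the start, was 0 with DESeq2, without the filter on low counts and with the replicate block, and 0 to 2 without 1 mouse. It stayed 1 with RLE size factors, with nuclei of at least 2000 entries and with only the 2 groups, where +42.2 kb was lost and another peak, given below, passed. The number called between CL and cold, also 1, was 0 with DESeq2, with RLE size factors, with at least 30 nuclei per sum, with only nuclei of at least 2000 entries and with the replicate block, and 0 to 1 without 1 mouse. In white sums the number was 0 to 1 and in beige sums 0 without 1 mouse. At +9.8 kb the day7CL difference from day7C was -2.04 with DESeq2 (adjusted p = 1.000), and its edgeR values without 1 mouse ran from -1.85 to -1.48 (adjusted p = 0.0338 to 0.526). The promoter in day7C passed the threshold with RLE size factors (1.36, adjusted p = 0.0472), with only nuclei of at least 2000 entries (1.59, 0.0432) and without day7C mouse 3 (1.56, 0.0383), and +9.8 kb passed with only the 2 groups compared (1.37, 0.0304). The fall at +42.2 kb ran from -0.68 to -0.48 without 1 mouse. The beige share difference turned to 8.52 percentage points without thinning, with 1 more day0RT mouse, and was -0.317 over the same mice. The beige promoter contrast over the days ran from -1.06 to -0.70 without 1 mouse, with no value without day1C mouse 2 or without day1CL mouse 3. The cause of these changes was not tested.

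With the replicate number as a block, the gene value in day7C was 1.49 (adjusted p = 0.00571). Same-numbered mice did not visibly deviate together (mean r = -0.001 over 63 pairs, -0.091 to 0.140, and 6 of 21 mice were closest to their own number). Counting error in these sums can hide a shared deviation, so this check cannot exclude that the numbers pair mice. The study states that its snATAC-seq batches were run independently, and the batches were not linked to the replicate numbers here. The beige comparisons rest on few nuclei, 58 of them in day0RT.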

Other observations

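White nuclei with a promoter entry, 67 of 5935, had a median depth of 6047 entries, and 16.4% of them (8.49 to 27.5) had an entry in the 3 upstream peaks and 11.9% (5.30 to 22.2) in the 3 downstream peaks. Of the 5868 white nuclei without one, at a median depth of 2527, 4.40% and 1.16% did. Dendritic cells had the highest promoter level outside adipocytes, at 4.56 CPM from 6 of 677 nuclei (0.886%, 0.326 to 1.92) beside 2.75 CPM in white adipocytes (67 of 5935 nuclei), and no entry in the 3 downstream peaks.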
